A study of Caenorhabditis elegans with 2 samples.

Results

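The 261 microRNA (miRNA) genes of C. elegans were examined for binding of MADF-9, a protein with a MADF domain, a Myb-related kind of domain that binds DNA. They are all genes that the Ensembl annotation of WBcel235 (the assembly also called ce11) gives the miRNA biotype, 261 of 46926 annotated genes. Binding had been mapped by chromatin immunoprecipitation and sequencing (ChIP-seq) in whole L4 larvae of strain RW12324. In this strain the allele st12324, a CRISPR insertion on chromosome IV, adds TY1, EGFP and 3xFLAG tags to madf-9, and the tagged protein was pulled down with an antibody against GFP. Larvae were collected 48 h after a synchronised start from starved L1 animals that followed bleaching, with sonication to fragments of 200 to 800 bp. All samples form 1 group of 2 biological replicates. No untagged or input library was analysed here, and nothing in the labels says how the cultures of the replicates were kept apart. Peaks come from whole larvae, so strong binding in few cells and weak binding in many cells cannot be told apart.

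A miRNA is a short RNA that lowers the output of mRNAs to which it pairs. Its gene is transcribed into a longer primary transcript, from which the nuclear enzyme Drosha and then Dicer cut the mature strand that is loaded into an Argonaute protein. Bases 2 to 8 of the mature strand, the seed, largely set which mRNAs are bound, and miRNAs with the same seed form a family. In C. elegans the lin-4 and let-7 families are known as switches of larval timing in the heterochronic pathway.

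For each gene the region searched ran from 1000 bp upstream of the 5' end to the 3' end, and a gene is called bound where the summit of a thresholded peak lies in it. The word stands for this call and not for regulation. In the set called between the replicates, which holds 1637 peaks, 17 of the 261 miRNA genes were bound through 15 summits. This is 6.51% of miRNA genes (95% Wilson interval 4.11 to 10.2%). Of all 46926 genes treated the same way 5.04% were bound, a value inside that interval. The latter include 15363 piRNA genes, of which 0.488% were bound, and these lower the share of all genes. What follows therefore describes which miRNA genes carried peaks and how strong the peaks were, and does not rest on the number bound.

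The mature sequences of the families that hold the strongest peaks show which miRNAs the bound genes encode. They are read from RefSeq on WBcel235, 5′ to 3′, with the seed in capitals, and for each gene the arm that carries the family seed is given. The first group has the let-7 seed. Of its members shown, mir-241 was bound and let-7, mir-48 and mir-84 were not.
mir-241 (chrV:14366248-14366268, minus strand): uGAGGUAGgugcgagaaauga
mir-48 (chrV:14364472-14364494, minus strand): uGAGGUAGgcucaguagaugcga
mir-84 (chrX:16022447-16022470, minus strand): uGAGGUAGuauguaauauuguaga
let-7 (chrX:14744234-14744255, minus strand): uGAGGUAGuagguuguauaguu
The second group has the lin-4 seed. Its first member was bound and mir-237 was not.
lin-4 (chrII:5902269-5902289, plus strand): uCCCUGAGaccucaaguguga
mir-237 (chrX:8154099-8154121, plus strand): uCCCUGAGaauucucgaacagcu
The third group is the mir-51 family, whose 6 members share the seed ACCCGUA. All but mir-53 were bound.
mir-51 (chrIV:11026074-11026096, minus strand): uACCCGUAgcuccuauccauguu
mir-52 (chrIV:14034024-14034047, plus strand): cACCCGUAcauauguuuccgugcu
mir-53 (chrIV:11027653-11027676, minus strand): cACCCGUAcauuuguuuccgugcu
mir-54 (chrX:13145011-13145034, minus strand): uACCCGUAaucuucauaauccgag
mir-55 (chrX:13144842-13144864, minus strand): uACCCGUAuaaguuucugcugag
mir-56 (chrX:13144706-13144727, minus strand): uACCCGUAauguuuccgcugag
The last group is the mir-58 family. Of 6 genes with the seed GAGAUCA only mir-80 was bound, and mir-81, mir-82, mir-58b, mir-58c and mir-2209a, which are not shown, were not. mir-58a, whose seed differs in its last base, was not bound either.
mir-80 (chrIII:8865285-8865307, minus strand): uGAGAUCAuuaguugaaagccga
mir-58a (chrIV:3233314-3233335, plus strand): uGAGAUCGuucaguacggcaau

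The DNA at the summits is shown for 8 of the 9 peaks that lie outside promoters of protein-coding genes, since these are not in the promoter of a protein-coding gene, although genes of biotype ncRNA cover the summits of lin-4, mir-52 and mir-51. Each is the 101-bp window centred on the summit, on the strand of the miRNA gene, from the RefSeq genome (WBcel235). Capitals mark TATAAA on either strand, a sequence known as the TATA box, and CACGTG, a palindrome known as an E-box. In the mir-241 window TATAAA overlaps its own reverse complement. The window of mir-2, the remaining peak outside these promoters, is not shown and holds neither TATAAA nor CACGTG. The windows lie at chrV:14366709-14366809 (mir-241, minus strand), chrII:5901800-5901900 (lin-4, plus strand), chrX:13145322-13145422 (mir-54, minus strand), chrIV:14033761-14033861 (mir-52, plus strand), chrIII:8865516-8865616 (mir-80, minus strand), chrIV:11026168-11026268 (mir-51, minus strand), chrIII:7278635-7278735 (mir-2214, plus strand) and chrX:13144437-13144537 (mir-55b, plus strand).
mir-241: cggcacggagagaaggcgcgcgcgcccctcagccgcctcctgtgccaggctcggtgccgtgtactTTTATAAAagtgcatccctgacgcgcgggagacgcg
lin-4: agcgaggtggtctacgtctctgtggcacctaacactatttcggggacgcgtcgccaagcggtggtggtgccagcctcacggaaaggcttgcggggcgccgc
mir-54: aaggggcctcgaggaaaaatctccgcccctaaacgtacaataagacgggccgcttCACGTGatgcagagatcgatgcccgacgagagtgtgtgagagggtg
mir-52: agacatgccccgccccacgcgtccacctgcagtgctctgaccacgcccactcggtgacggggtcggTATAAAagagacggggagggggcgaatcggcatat
mir-80: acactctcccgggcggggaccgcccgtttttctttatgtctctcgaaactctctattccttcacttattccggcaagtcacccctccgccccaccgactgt
mir-51: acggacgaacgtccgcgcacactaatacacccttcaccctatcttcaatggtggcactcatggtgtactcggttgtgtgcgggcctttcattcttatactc
mir-2214: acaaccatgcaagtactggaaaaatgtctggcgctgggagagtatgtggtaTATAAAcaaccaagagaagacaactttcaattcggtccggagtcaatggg
mir-55b: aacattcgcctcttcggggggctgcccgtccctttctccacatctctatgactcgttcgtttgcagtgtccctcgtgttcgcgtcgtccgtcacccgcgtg

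The strongest miRNA peak lay upstream of mir-241, a let-7 family member that acts with mir-48 and mir-84 in the passage from the second to the third larval stage. The gene lies outside protein-coding genes on chromosome V, 14366188 to 14366283, minus strand. Its peak (14366662 to 14366888) had a signal of 391, the authors' strength value per peak in a unit that is unstated, and ranked 11 of 1637. The signal was 228 in replicate 1 and 153 in replicate 2, the highest of any miRNA gene in either replicate. The summit lay 476 bp upstream of the 5' end. The replicates' own summits lay 15 and 20 bp from it.

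The second strongest peak belonged to lin-4, the founding miRNA, which lowers LIN-14 and LIN-28 to let larvae leave the first stage. lin-4 lies on chromosome II, 5902254 to 5902347, plus strand, inside a host gene of the same strand, F59G1.4. Its peak (5901813 to 5901985) had a signal of 294, rank 39, with the summit 404 bp upstream in an intron of the host and outside any protein-coding promoter. A gene of biotype ncRNA, F59G1.12, also covers the summit. Replicate 1 had a signal of 196 and replicate 2 of 81.8. Both replicates placed lin-4 second among miRNA genes, but in replicate 2 mir-52 was close behind it at 80.6. The ratio of 2.39 between the replicates at lin-4 was larger than at mir-241, where it was 1.49.

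The mir-51 family, abundant miRNAs required in the embryo, had 5 of 6 members bound through 3 summits. A single peak on chromosome X (13145371 to 13145458) served mir-54, mir-55 and mir-56, which follow each other on the minus strand inside F09A5.3, a protein-coding gene of the opposite strand. Its signal was 179, with 95.8 in replicate 1 and 80.5 in replicate 2. The summit lay 278 bp upstream of mir-54, 448 bp upstream of mir-55 and 585 bp upstream of mir-56, so these 3 genes are 1 observation and not 3.

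mir-52 (chromosome IV, 14034008 to 14034107, plus strand) had a peak at 14033722 to 14033891 with a signal of 175, whose summit was 197 bp upstream, inside 2 genes of biotype ncRNA. The replicates were nearly equal there, at 81.4 and 80.6. In replicate 1 a further thresholded peak of this gene lay 989 bp upstream and was slightly higher, at 84.2. mir-51 (chromosome IV, 11026013 to 11026112, minus strand) had a peak at 11026088 to 11026347 with a signal of 122 and its summit 106 bp upstream, inside the ncRNA gene F36H1.17. Its replicate signals were 61.7 and 52.2. Each of the 3 summits of the family was in both replicates' own thresholded sets.

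The remaining member, mir-53, lies upstream of mir-51 and was not bound. Its best ranked region had a signal of 52.9 with the summit 38 bp upstream, and 27.9 in replicate 1 and 28.0 in replicate 2. Its irreproducible discovery rate (IDR), an estimate of how many regions this strong would fail to recur, was 0.0214, against a threshold of 0.01.

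A further peak in F09A5.3 (chromosome X, 13144357 to 13144616) was assigned to mir-55b, which is annotated antisense to mir-55 on the plus strand. Its signal of 66.6 was the lowest of the 15. The peak was in replicate 2's own set at 53.8, and replicate 1 had no overlapping region in its ranked list. Its summit lies 204 bp beyond the 3' end of mir-56, so the cluster is flanked by a strong peak on the upstream side of the mir-54 group and a weak one on the other side. Peaks have no strand, so the choice between the miRNA genes of the opposite strands rests on the region rule alone.

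mir-80, one of the abundant mir-58 family miRNAs, was the only one bound of the 8 listed family members, which leave out mir-58c. Its peak (chromosome III, 8865436 to 8865695) had a signal of 135 and a summit 199 bp upstream of the gene (8865270 to 8865367, minus strand). The signal was 76.8 in replicate 1 and 60.1 in replicate 2. The mir-2 family, whose first member also exists in flies, had 1 of 4 bound. mir-2 itself, on chromosome I inside ppfr-1 on the same strand, had a signal of 72.3 at 162 bp upstream. At 33.0 and 32.1 the replicates were close, but neither replicate's own set held this peak.

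**Figure D1:**
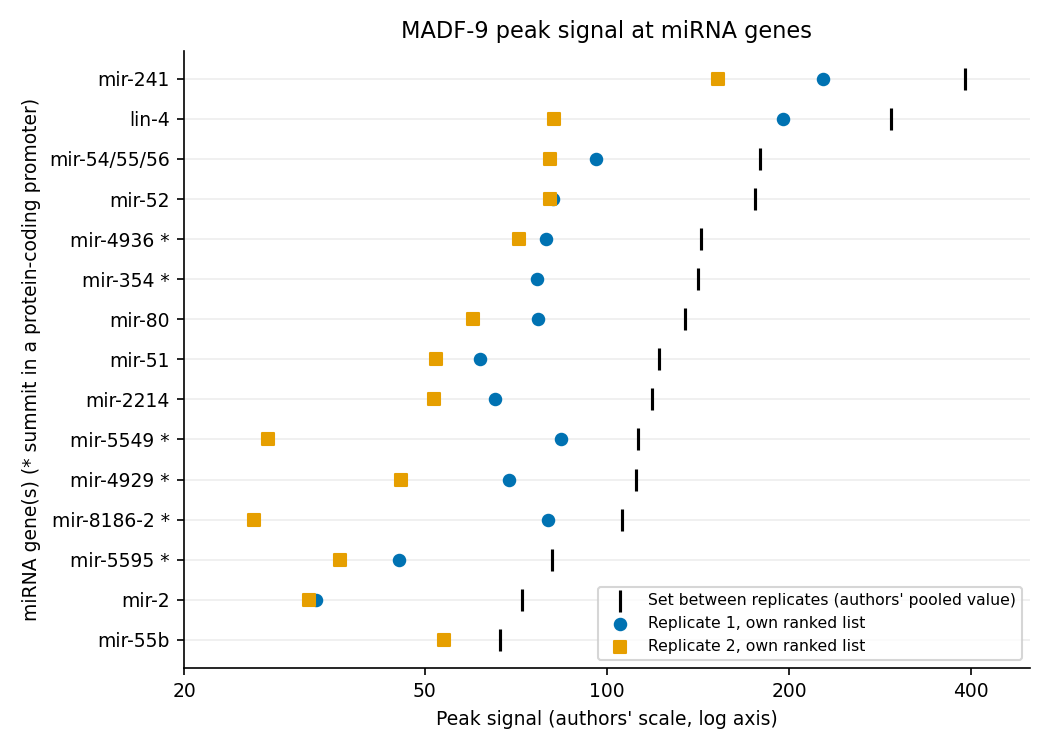
Peak signal (authors' scale, log axis) at each of the 15 peaks in miRNA regions, one row per peak. Bars give the value of the set called between replicates, blue points replicate 1 and orange squares replicate 2. Replicate 1 lies right of replicate 2 at all 13 peaks with both values, from 1.01 times at mir-52 to 3.06 times at mir-8186-2.

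The other 7 bound genes have no function assigned here. mir-2214 (chromosome III, 7278715 to 7278778, plus strand) lies in an intron of B0361.11 on its strand. Its signal was 119, with 65.2 and 51.8 in the replicates and the summit 30 bp upstream. The 6 remaining peaks fell in promoters of protein-coding genes, taken as 1000 bp upstream to 200 bp downstream of a transcript start, and cannot be assigned to the miRNA gene over its neighbour.

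The mir-4936 peak had a signal of 143 (79.2 and 71.4 in the replicates) with the summit 79 bp inside the gene and 655 bp upstream of nduf-9, which encodes a subunit of mitochondrial complex I. In replicate 1 the summit lay beyond the 3' end of mir-4936, so that replicate's own set does not count the gene. The peak of mir-354 had a signal of 142 at 847 bp upstream, the farthest of all. It lies in the promoters of ekl-4 (162 bp upstream) and of the ribosomal protein gene rps-20 (235 bp upstream), in which mir-354 itself sits. Replicate 1 gave 76.6 there, and replicate 2 had no overlapping ranked region.

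mir-5549 had a signal of 112 (84.1 and 27.5) with the summit 9 bp upstream of it, 382 bp upstream of the translation elongation factor gene eef-1A.1 and 159 bp upstream of rfc-4, a clamp loader subunit of DNA replication. mir-4929 also had 112 (68.8 and 45.6), at 303 bp upstream of the miRNA gene. That summit lies in an intron of its host E01G4.3, 122 bp upstream of a transcript start of the host. mir-8186-2 had 106 (79.8 and 26.1), at 288 bp upstream of it and 553 bp upstream of gmeb-1. mir-5595 had 81.0 (45.2 and 36.1), at 169 bp upstream of it. That summit lies in an intron of nurf-1, a chromatin remodelling subunit gene that contains mir-5595 on the other strand. The summit is 254 bp upstream of a transcript start of nurf-1. At mir-5549 and mir-8186-2 replicate 1 was about 3.06 times replicate 2, and replicate 2's own set held neither. The mir-5595 peak was in neither replicate's own set.

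Over the 15 peaks the signal had a median of 122, against 89.3 over all 1637 peaks, and 12 of the 15 were above the median of the whole set. The 9 peaks outside protein-coding promoters had a median of 135 and the 6 inside had 112. Of the 15 peaks 9 were in both replicates' own sets (60%, against 35.6% of all peaks), 3 more only in that of replicate 1, 1 only in that of replicate 2 and 2 in neither. Replicate 1 had the higher signal at all 13 peaks with a region in both ranked lists, and at 73.8% of the 1603 such peaks of the whole set. The ratio of replicate 1 to replicate 2 had a median of 1.26 at miRNA peaks and 1.18 over all peaks. The depth of each library is unknown, and its part in this offset was not tested. No miRNA summit lay within 250 bp of a tRNA, snoRNA or snRNA gene, the classes of small RNA gene with the highest shares bound in this experiment.

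**Figure D2:**
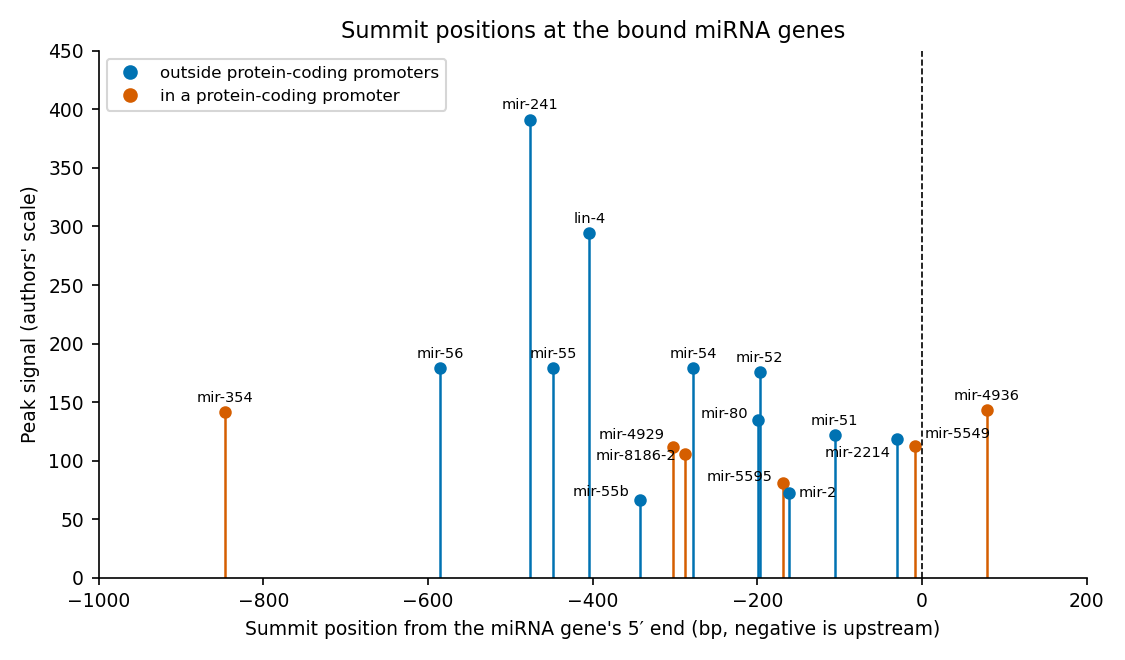
Signal of the peak (authors' scale) against the position of its summit from the 5' end of each of the 17 bound miRNA genes, in bp with negative values upstream. Blue marks summits outside protein-coding promoters and orange those inside. The mir-54, mir-55 and mir-56 points are the same peak, and 14 of the 17 positions lie within 500 bp upstream.

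Of the 17 positions 16 were upstream of the 5' end, with a median of -278 bp and a range of -847 to 79 bp. The region itself is nearly all upstream, since the median miRNA gene is 95 bp long, so this direction is largely given by the rule. Within the 1000 bp, 14 positions lay in the 500 bp nearest to the gene. The annotated 5' end of a miRNA gene is mostly that of the hairpin and not that of the primary transcript, so distances to a transcription start are not given. None of the 15 summits lay in an exon of a protein-coding gene, 7 lay in introns and 8 between protein-coding genes.

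The windows of the 15 summits had a median GC content of 56.4%, against 50.5% over the set as a whole. The 9 summits outside protein-coding promoters had a median of 56.4%, while the 6 inside had 49.5%, below the whole set. The words TATAAA and CACGTG were added after the sequences were seen, so their shares are a description and not a test. TATAAA was in 3 of 15 windows (mir-241, mir-52 and mir-2214), against 4.03% of all 1637 windows. CACGTG was in 3 of 15 (mir-54, mir-4929 and mir-5595), against 4.70%, with each word searched on both strands. CGCCCC, picked after seeing the sequences as the 6-base word shared by most of them, was in 7 of 15, against 4.70%. The GC content moves with such a GC-only word, and its part was not tested. AGACGCAG and CTGAGCTA, words from an earlier analysis of the same peaks, were in 7.27% and 4.64% of all windows. Both were in 0 of the 15, a count that allows a share of up to 20% and so cannot be told from the whole set. These matches describe letters in a window and not sites of a factor.

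The other members of the timing families had weaker regions. let-7 itself, which drives the passage from the last larval stage to the adult, was not bound in L4 larvae. Its gene entry is unusually long, 1732 bp on chromosome X (14743590 to 14745321, minus strand). The strongest ranked region in it had a signal of 58.0 and an IDR of 0.0501, with the summit 473 bp upstream of the first mature sequence. The highest values in the region were 31.5 in replicate 1 and 21.8 in replicate 2, against 228 and 153 at mir-241.

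mir-48 lies 1678 bp downstream of mir-241 on the same strand, so the mir-241 summit is 2250 bp upstream of it and outside its region. Its own best ranked region had a signal of 59.9 at an IDR of 0.247, with 40.7 and 17.4 in the replicates. mir-84 reached 36.5 (14.5 and 30.6), mir-795 reached 29.0 (17.5 and 14.2) and mir-794 reached 20.01, with 14.3 in replicate 1 and no region in replicate 2. mir-793 had no region in any list. mir-237, the other member of the lin-4 family, reached 22.1, with 15.3 in replicate 2 and none in replicate 1. Within each of these families, then, 1 gene had a strong peak in both replicates and no other passed the threshold.

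Counted by setting, 9 of the 62 genes in the listed families and single miRNAs were bound (14.5%, interval 7.83 to 25.3%), against 8 of the 199 other miRNA genes (4.02%, 2.05 to 7.73%). With mir-54, mir-55 and mir-56 counted once, since they share 1 peak, the listed genes had 7 of 60 (11.7%, 5.77 to 22.2%), an interval that overlaps that of the others, and the lists were chosen with earlier results known. The families with no bound member were the mir-35 family of the early embryo (0 of 8), the mir-44 (0 of 6) and mir-64 (0 of 5) families, and the mir-50, mir-72, mir-46, mir-49 and mir-75 families. Of miRNA genes inside a protein-coding gene 4 of 32 on the opposite strand (12.5%) and 6 of 74 on the same strand (8.11%) were bound, against 7 of 155 outside (4.52%), with intervals that overlap. By chromosome the counts were 2 of 33 on I (6.06%), 4 of 49 on II (8.16%) and 4 of 27 on III (14.8%). They were 2 of 50 on IV (4%), 1 of 28 on V (3.57%) and 4 of 74 on X (5.41%), where mir-54, mir-55 and mir-56 share 1 peak. The intervals are wide and overlap, from 5.92 to 32.5% on III and from 0.633 to 17.7% on V. The share of all genes on each chromosome is not given here.

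Each replicate's own thresholded set, and the pooled set, were searched in the same way. Replicate 1's own set (1002 peaks) had 19 miRNA genes bound, 7.28% (4.71 to 11.1%), against 3.45% of all genes. Replicate 2's own set (806 peaks) had 15, 5.75% (3.51 to 9.26%), against 2.88%. The pooled set (1632 peaks) had 23, 8.81% (5.94 to 12.9%), against 5.06%. The shares of all genes are again lowered by piRNA genes, of which 0.338% were bound in either replicate's own set and 0.553% in the pooled set. The intervals of the miRNA shares treat genes that share a peak as independent. With such genes counted once, the shares were 5.47% (3.29 to 8.97%) in replicate 1 and 4.28% (2.41 to 7.5%) in replicate 2. In the pooled set the share was 7.03% (4.49 to 10.8%). Each interval then holds the share of all genes, but that share still counts every gene on a shared peak, so the measures are unlike. In all 4 sets 9 genes were bound, in at least 1 set 25 were, and 8 of these were outside the set between replicates.

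The largest group among those 8 was the mir-64 family cluster. mir-229, mir-64, mir-65 and mir-66 follow each other on chromosome III inside gcn-1 on the same strand, and they share a region at 2172102 to 2172361 with a signal of 73.6. In the pooled set it passed with an IDR of 0.00444, but between the replicates its IDR was 0.208. Replicate 1's peak (42.5) lay 164 bp upstream of mir-229 and that of replicate 2 (38.0) lay 368 bp upstream, so each replicate had a thresholded peak there with its summit at a different place. Only mir-66 was outside replicate 2's set, since that summit is beyond its 1000 bp.

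The other 4 genes share no region with one another. mir-71, which is known from lifespan, passed in the pooled set (66.4) and in replicate 1 (56.7), where replicate 2 had at most 22.9. mir-235, which keeps neural and other progenitors quiescent in starved L1 larvae, passed only in the pooled set (64.7), with 42.7 and 19.3 as the highest replicate values. mir-238 passed only in replicate 1 (44.0).

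mir-34, a miRNA of stress responses, passed only in the pooled set, with a signal of 37.8 at 48 bp inside the gene. It also had a region between the replicates with a signal of 25.7, at 980 bp upstream, whose score of 830 is just at the threshold. That region is 1 of 115, among 1752 ranked regions with such a score, that the deposited set leaves out. At the margin of the set, the weakest bound genes were mir-55b (66.6), mir-2 (72.3) and mir-5595 (81.0). The strongest unbound were the mir-229 group (73.6), then mir-40 and mir-41 of the mir-35 family (66.8 from a shared region) and mir-71 (66.4). The signals of bound and unbound genes overlap at this margin, where the threshold is on the IDR and not on the signal.

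**Figure D3:**
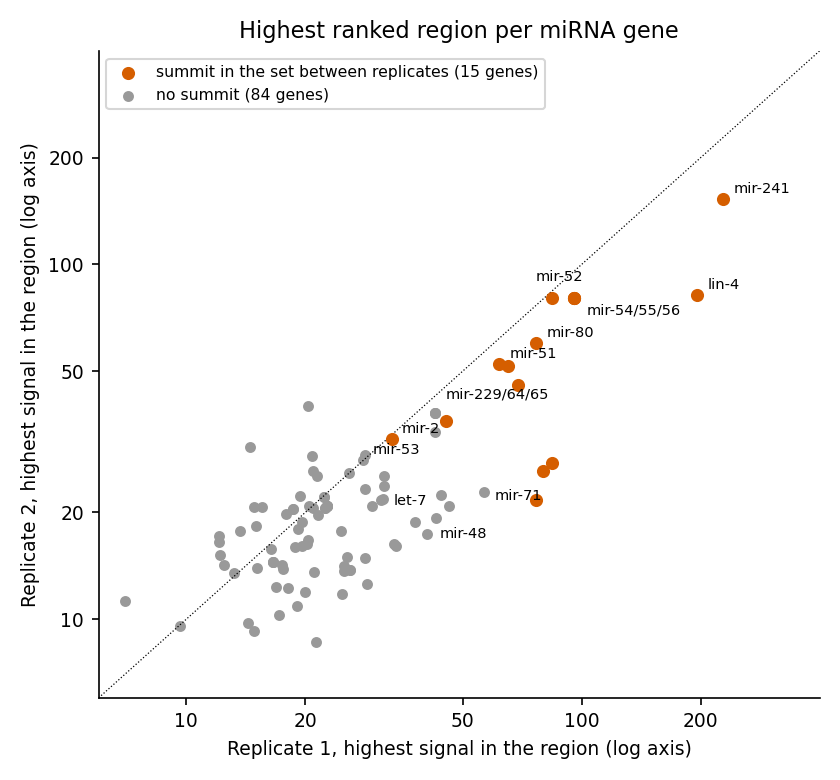
Highest signal of a ranked region in each miRNA gene's region, replicate 2 against replicate 1 (authors' scale, both axes log), for the 99 genes with a region in both ranked lists. Orange points are the 15 of these bound in the set between replicates and grey points the 84 others. mir-241 and lin-4 stand at the top right, while most others lie below 50 in both.

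Below the threshold most miRNA genes had some ranked region, as did most genes of the genome. The ranked list between replicates (86867 regions) gave 187 miRNA genes, 71.6%, against 60.8% of all genes. Replicate 1's list gave 143 (54.8% against 50.5%) and that of replicate 2 gave 142 (54.4% against 51.8%). The shares of all genes are lowered by the 15363 piRNA genes, so a higher miRNA share is not read as a result. Of piRNA genes 22.9% had a region between replicates, 16.9% in replicate 1 and 18.8% in replicate 2. The median of the highest signal per miRNA gene was 30.8 between replicates, 20.9 in replicate 1 and 17.97 in replicate 2, against medians over all ranked regions of 23.6, 17.2 and 15.9, which are not highest values. Across the 99 genes present in both replicates' lists the highest signals had Spearman's rho of 0.657 and, on log2 values, Pearson's r of 0.791. Over the 84 of them that were not bound rho was 0.476. Genes share regions and the replicates share the genome's mappability, so these values describe the lists only.

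**Figure D4:**
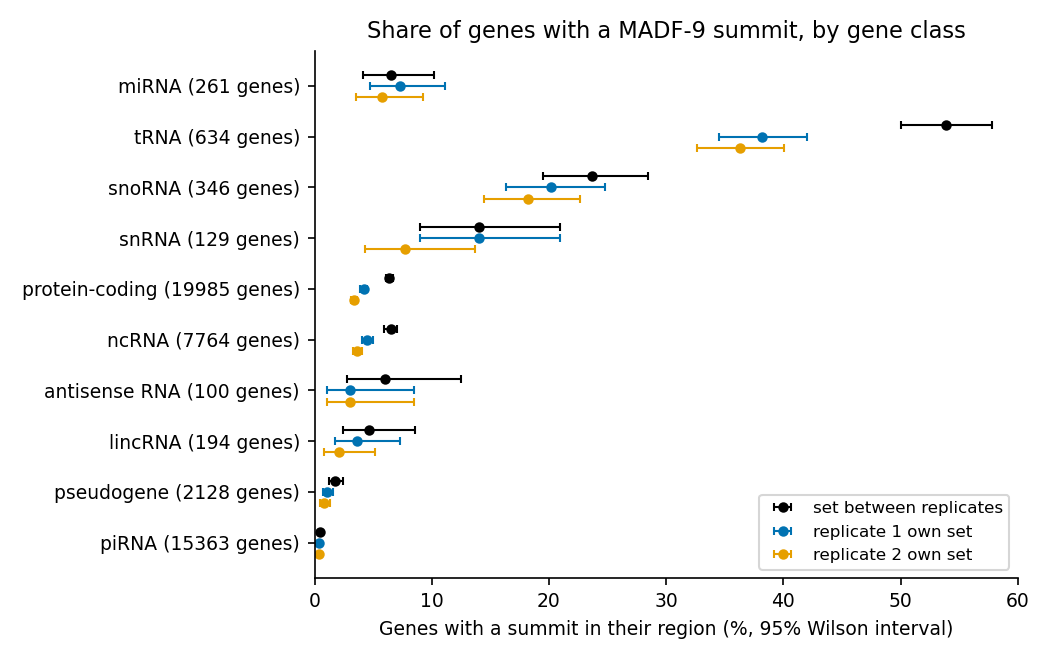
Share of genes with a summit in the region, by Ensembl gene class, with 95% Wilson intervals that cover counting error only. Black gives the set between replicates, blue replicate 1's own set and orange that of replicate 2. miRNA genes lie near protein-coding genes (6.51% and 6.38%) and below tRNA genes (53.9%).

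Set beside the other classes of small RNA genes, the share of 6.51% for miRNA genes compared with 53.9% for tRNA genes (interval 50.1 to 57.8%), 23.7% for snoRNA genes (19.5 to 28.5%) and 14% for snRNA genes (9.01 to 21.0%). The interval of miRNA genes overlapped that of snRNA genes alone among these 3. The share for protein-coding genes was 6.38%, over regions with a median of 3026 bp against 1095 bp for miRNA genes. With protein-coding regions shortened to the length of a median miRNA region, a choice made after seeing the data, it was 4.16%, at the lower end of the miRNA interval.

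The protein genes of the miRNA pathway were looked up in the same way. Of all protein-coding genes 6.38% were bound, against 4.18% in replicate 1's own set and 3.38% in that of replicate 2. None of the 5 processing genes drsh-1, pash-1, dcr-1, xpo-1 and xrn-2 was bound. Of 10 Argonaute and effector genes 5 were, against 3 in replicate 1's own set and 4 in that of replicate 2, while the Argonaute genes alg-1, alg-2 and alg-5 were not. nhl-2, a TRIM-NHL cofactor of the silencing complex, had a signal of 275 (150 and 122 in the replicates) at 859 bp upstream. ain-1, a GW182-type partner of the Argonautes, had 201 (121 and 81.0) at 976 bp upstream. The others were the second GW182-type gene ain-2 (54.0), the DEAD-box helicase gene cgh-1 (85.1) and the poly(A)-binding protein gene pab-2 (118).

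A list named for regulators of let-7 also holds lin-46, so its count is not of let-7 regulators alone. Of its 4 genes 2 were bound, against 1 in replicate 1's own set and 2 in that of replicate 2. lin-28, whose protein blocks let-7 maturation, had a signal of 189 (123 and 69.6) at 786 bp inside the gene. lin-46, which acts downstream of lin-28, had 114.8 (63.0 and 45.5) at 827 bp upstream. Of 13 genes known as miRNA targets 6 were bound, against 4 in replicate 1's own set and 3 in that of replicate 2. They were lin-42 (1259, with 690 and 523), the worm's period homologue, whose peak ranked 1 of 1637, then lin-28, the lin-4 target lin-14 (124), the nuclear receptor gene daf-12 (80.1), vav-1 (79.4) and mef-2 (71.5). The targets lin-41 and hbl-1 were not bound. In all, 12 of the 31 pathway genes were bound (38.7%), against 6.38% of protein-coding genes. The lists were chosen with earlier results of these data known, so this difference is a description and not a test. The pathway genes' median region of 6614 bp is also longer than the 3026 bp of protein-coding genes, and several summits lie far inside the gene. Replicate 1's own set held 7 of the 31 (22.6%, against 4.18% of protein-coding genes). That of replicate 2 held 8 (25.8%, against 3.38%). The part of gene length in these shares was not tested.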

How the data were processed

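ChIP-seq of GFP-tagged MADF-9 was done in 2 replicates of whole L4 larvae. The authors deposited peak lists on ce11, per the labels, as ranked and thresholded lists for each replicate, for both together and for pooled data. The aligner, the peak caller and the control library were not given in the sources used here. Per the file headers and values there are no read counts, so the depth is unknown and no interval of a signal is given. The deposited signal of a peak has no stated scale and served to describe and rank the peaks of each list. The deposited score is a scaled IDR that stops at 1000, and the thresholded sets have scores of at least 830, an IDR of at most 0.01. The deposited −log10 q values were read but give no result.

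Regions, summits, positions and shares were computed with Python 3.11.15, numpy 2.4.6, pandas 2.3.3 and scipy 1.17.1 from Ensembl release 115 genes, and sequences were read from the RefSeq genome. All 261 miRNA genes matched a RefSeq entry by WormBase ID, 260 with mature sequences, and 6 names were taken from RefSeq. The signal of a replicate at a peak comes from the ranked region that overlaps it most, by 1 bp or more. The assignment of summits was checked on simulated peaks. No test was run, since there is 1 group. Named genes are all bound miRNA genes, the 5 highest in each replicate, those thresholded in another set, the let-7 and lin-4 families, the bound pathway genes and the 3 on either side of the threshold, along with whole families of a bound gene. The members, families, pathway lists and words were chosen with earlier results of these data known, and the TATA-box, E-box and GC words were added after the sequences were seen. One listed effector gene, ntl-1, was not found under that name. Alternatives covered the other peak sets, the length of the region, the overlap rule, and summits near protein-coding starts and tRNA genes.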

Additional observations from a re-analysis of the deposited data

How the results depend on the processing

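The count of 17 bound miRNA genes stayed within 1.5 times under 10 of 12 alternatives. With 250 bp upstream it was 8 genes (3.07%) through 8 summits, with a median position of -134 bp, and without summits in protein-coding promoters it was 11 genes through 9 summits. With 2000 bp upstream it was 24 genes (9.20%) through 25 summits with a median position of -448 bp, and with 500 bp the median position was -199 bp. From single replicates the count was 15 to 19 genes (5.75 to 7.28%) through 12 to 15 summits, with a median position of -367 to -350.5 bp and a median signal of 56.9 to 76.8 on the scale of each list. Counting any overlap, or adding passing regions that the set leaves out, gave 18 genes each, and genes that share their summits counted once gave 15 (5.79%). Leaving out summits near tRNA genes changed none of these values. The share of protein-coding genes was 4.16% over regions as long as those of miRNA genes. All 28 replicate signals were the same when the nearest summit was used. The mir-64 family had 0 members bound in the set between replicates, 4 in the pooled set and 4 and 3 in replicates 1 and 2, while mir-52 was absent from the pooled set. The mir-2 family had 1 member bound between replicates and 0 in either replicate's own set. No paired analysis was possible because there is 1 group and no comparison of groups. Depth limits cannot be given without read counts, and the absence of a peak does not show the absence of binding.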
